A study of Homo sapiens with 6 samples.

Results

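The authors describe the human leukaemia cell line SEM as proB, with the KMT2A::AFF1 fusion. The mitochondrial ribosomal protein genes, whose symbols start with MRPL or MRPS followed by a number, were compared between 2 of its derivatives. They were taken from the table by symbol alone and numbered 78 of 35410 listed genes. SEM::mock carries the empty vector and SEM::EGR3 an inducible vector for the transcription factor EGR3. Both lines received 1 µg/mL doxycycline for 48 h, and 3 biological replicates of each were measured by MACE-Seq, which counts the 3′ ends of polyadenylated transcripts. The comparison asks how forced EGR3 expression went along with transcript levels of the mitochondrial translation machinery.

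Mitochondria keep a ribosome of their own, which translates only the few mRNAs encoded by mitochondrial DNA, all of them for subunits of the respiratory chain and ATP synthase. Its RNAs are made in the organelle, whereas its proteins are encoded by nuclear genes, translated in the cytosol and imported. Some of these proteins descend from bacterial ribosomal proteins and others were added during the evolution of mitochondria. The family names do not map exactly onto the subunits. MRPS18A and MRPS30 are proteins of the large subunit, and MRPS36 is today regarded as a subunit of the 2-oxoglutarate dehydrogenase complex. By these assignments the list held 51 large-subunit genes, 26 small-subunit genes and MRPS36.

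EGR3 transcripts were counted 8, 10 and 6 times in replicates 1 to 3 of SEM::mock, and 9768, 4952 and 5557 times in those of SEM::EGR3. This is the direction the labels give. The counts do not separate transcripts of the cell's own gene from those of the vector. The listed genes totalled 5286115 to 6181388 counts in SEM::mock and 7293092 to 15106018 in SEM::EGR3, so the second line was sequenced more deeply. The lines also differed in markers of blood lineages. Of 13 B-lineage markers, 10 had at most 3 counts in every SEM::mock library, and their summed level was 3.00 to 6.28 normalised CPM (counts scaled to a common library total) there against 499 to 526 in SEM::EGR3. EBF1, a defining factor of the lineage, was at 0 in every SEM::mock library but was counted 2058, 925 and 1145 times in those of SEM::EGR3, whereas BLNK, DNTT and RAG2 had at most 2 counts in any library of either line. The summed level of 13 erythroid markers was high in both lines, at 4905 to 5203 CPM in SEM::mock and 6131 to 6385 in SEM::EGR3. In each line 2 of the 13 had at most 3 counts in every library. Of the 11 tested, 3 were higher and 8 lower in SEM::EGR3 (edgeR, adjusted p under 0.05), with a median log2 fold change of -0.87. The chromosome 9p21 genes CDKN2A, CDKN2B and MTAP summed to 0 to 0.196 CPM in SEM::mock and 174 to 177 CPM in SEM::EGR3. For 6 targets of KMT2A fusions the sums were 21.6 to 24.7 CPM in SEM::mock and 560 to 598 in SEM::EGR3. In the same order, myeloid markers summed to 208 to 230 and 50.5 to 52.8 CPM, and epithelial or fibroblast markers to 750 to 782 and 453 to 477. T cell markers summed to 87.1 to 99.2 and 81.5 to 90.3 CPM, and megakaryocyte markers to 11.2 to 12.2 and 12.6 to 14.4. Genes within these sums went both ways. Of 5 tested T cell markers, 2 were called higher and 3 lower, with log2 fold changes from -4.23 to 5.94. Of 5 tested epithelial or fibroblast markers, 2 were higher and 3 lower. For 3 tested myeloid markers it was 1 and 2, and for 2 tested megakaryocyte markers 1 and 1. The label proB thus had little support from the B-lineage markers in SEM::mock. In SEM::EGR3 it stood beside absent BLNK, DNTT and RAG2 and a high erythroid sum. A response to EGR3 and other differences between the lines cannot be told apart in the values below. No cause of these marker differences was tested.

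MRPL17, the member with the largest fitted increase, and MRPS21, with the largest fitted decrease, are shown with bases upstream of their starts, beside MRPL30, a lower member chosen for display after its values were seen. The sequences are from RefSeq for GRCh38 and end where the gene model of the annotation begins. MRPL17 lies on the minus strand of chromosome 11 and its stretch is chr11:6683402-6683590. MRPS21 and MRPL30 lie on plus strands, at chr1:150293611-150293719 and chr2:99180934-99181078. Capitals mark a match to the motif bound by NRF1, a nuclear activator of many genes for mitochondrial proteins.
MRPL17: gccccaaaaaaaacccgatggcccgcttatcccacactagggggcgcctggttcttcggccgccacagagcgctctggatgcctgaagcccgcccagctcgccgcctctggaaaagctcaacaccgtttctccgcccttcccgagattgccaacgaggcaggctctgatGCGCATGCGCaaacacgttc
MRPS21: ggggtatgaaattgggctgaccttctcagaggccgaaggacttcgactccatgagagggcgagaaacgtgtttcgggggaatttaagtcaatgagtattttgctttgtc
MRPL30: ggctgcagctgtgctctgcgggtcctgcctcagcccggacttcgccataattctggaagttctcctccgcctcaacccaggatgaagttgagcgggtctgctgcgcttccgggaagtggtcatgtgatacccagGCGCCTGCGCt
The MRPL17 match began 81 bases before the RefSeq start and that of MRPL30 began 116 bases before it, and MRPS21 held none in its window. The genes with a match were chosen as a higher and a lower member, so their opposite directions follow from the choice.

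Transcripts of the mitochondrial ribosomal proteins changed by small amounts and in both directions. Of the 78 members, 74 had enough counts to be tested, and of these 17 were called higher and 33 lower in SEM::EGR3 (edgeR quasi-likelihood test, Benjamini-Hochberg adjusted p under 0.05 over 15465 genes). The higher members made up 23.0% of those tested, against 36.5% of all tested genes, and the lower members 44.6%, against 32% of all tested genes. Within the 10th to 90th percentile of the members' average levels, 20.7% of 58 members were higher and 48.3% lower, beside 32.8% and 41.1% of the 3622 tested genes in that range. The remaining 24 were not called. The median member log2 fold change was -0.12, with quartiles of -0.26 and 0.12, beside a median of 0.03 and quartiles of -0.39 and 0.57 over all tested genes. The split of the calls depended on the scaling of the libraries. With no normalization factors it was 23 higher and 20 lower, beside 6304 and 4309 of all 15465 tested genes. With the library totals behind the deposited CPM it was 24 and 19, beside 6399 and 4191 of those genes. In those fits the median over all tested genes was 0.11 and 0.12, since a change of scale moves all genes alike. The members' median lay 0.15 below that of all tested genes here, 0.070 below it when at least 10 counts were required in every library, and 0.36 below it with no filter on low counts.

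**Figure D1:**
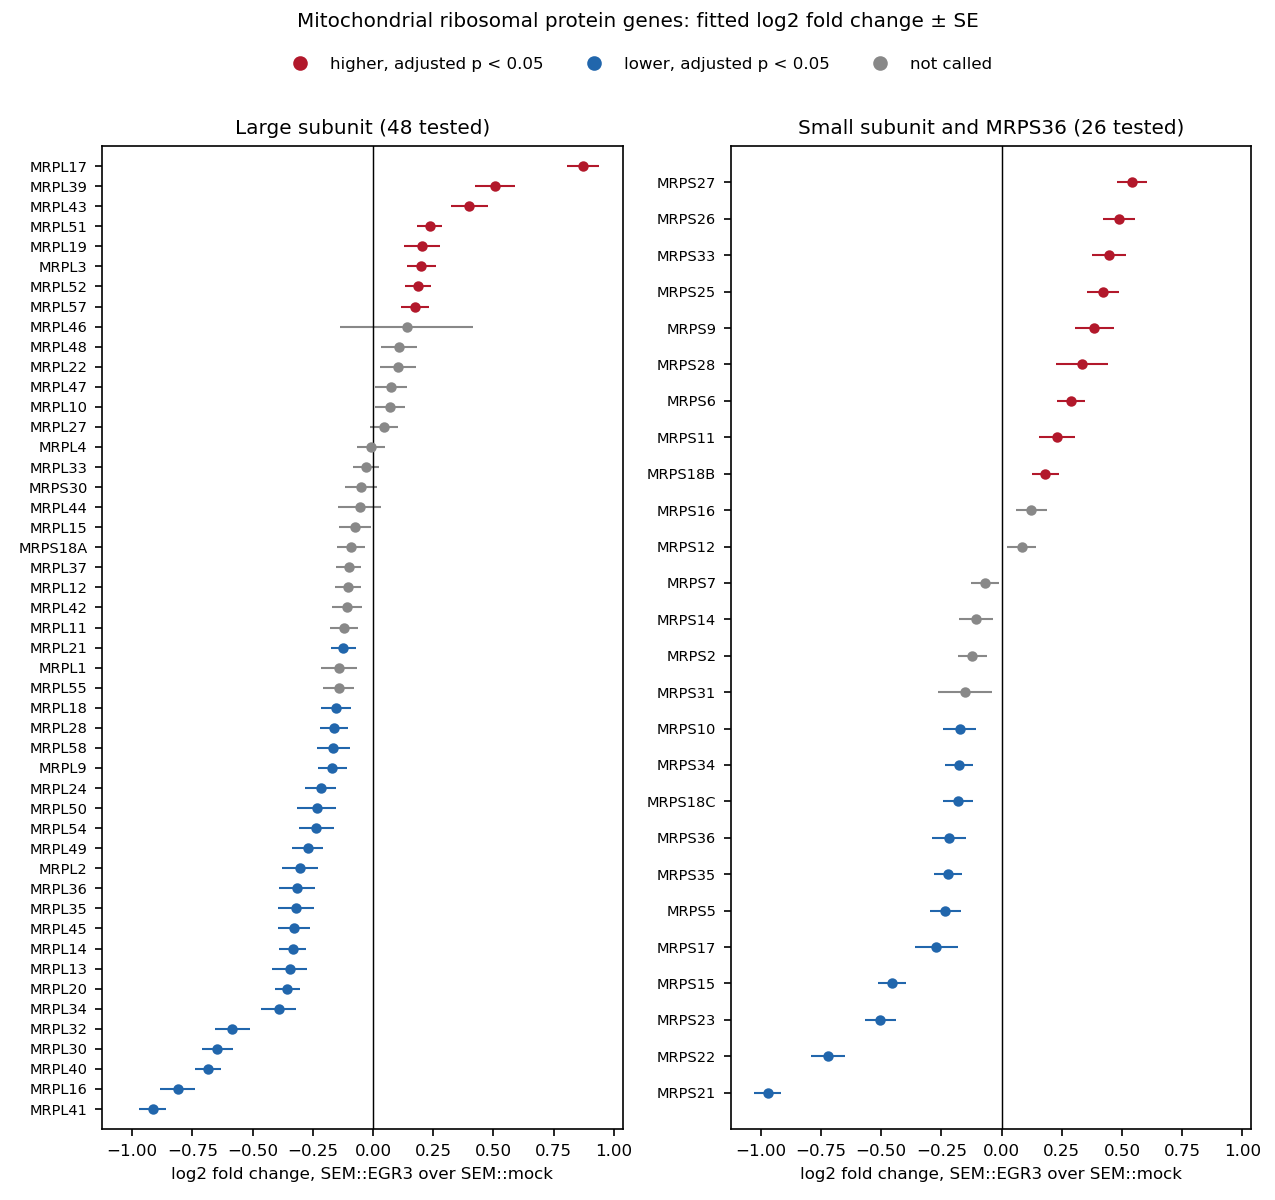
Fitted log2 fold change (SEM::EGR3 over SEM::mock, x axis) of each tested member, 1 row per gene, with bars for the SE, the large subunit at left and the small subunit with MRPS36 at right. Values run from -0.97 for MRPS21 to 0.87 for MRPL17, and most lie within 0.5 of 0.

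The sizes of the changes were more even than over the genome. A called log2 fold change of 0.5 or more in either direction was reached by 11 of 74 members, 3 higher and 8 lower. Of all tested genes 46% reached it. Within the 10th to 90th percentile of the members' average levels, 8 of 58 members and 1188 of 3622 tested genes reached it. No member reached a log2 fold change of 1 or more in either direction by edgeR or by DESeq2, also at an unadjusted p under 0.05. Of all tested genes, 25.2% were called at that size. Among 3622 tested genes with average levels between the 10th and 90th percentile of the members, 10.8% reached it. Without SEM::mock replicate 2 the count was 1, through MRPS21 at -1.01, and with no filter on low counts it was 1 through MRPL38, which had at most 3 counts in a library. The libraries of the lines did not overlap for 54 of 74 members (73.0%), close to the 70.1% of all tested genes. The cytosolic ribosomal proteins, which build the ribosomes outside mitochondria, gave a similar split in calls of any size. Of 83 tested, 17 were higher (20.5%) and 36 lower (43.4%), with a median of -0.08, beside 36.5% and 32.0% of all tested genes. At 0.5 or more, 6 of these 83 were higher and 2 lower, unlike the members. Their libraries did not overlap for 52 (62.7%). Their split also moved with the scaling, to 24 and 28 with no normalization factors and to 24 and 25 with the library totals.

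**Figure D2:**
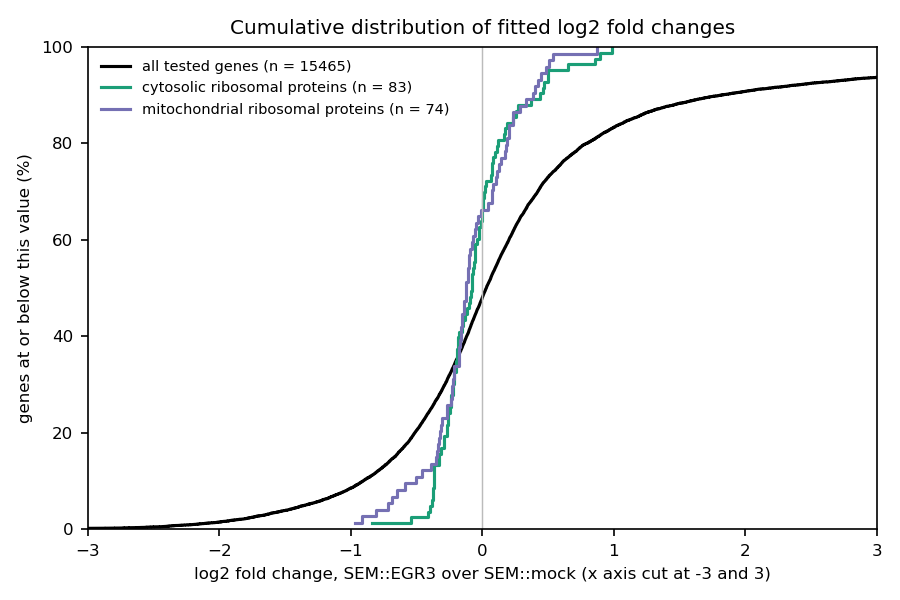
Percentage of genes (y axis) at or below each log2 fold change (x axis, SEM::EGR3 over SEM::mock) for all 15465 tested genes, 83 cytosolic and 74 mitochondrial ribosomal protein genes. Both ribosomal curves rise steeply near 0, with medians of -0.08 and -0.12, while the curve of all genes spreads widely.

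Summed over the 78 genes, the members had 8605 ± 256 CPM in SEM::mock and 7854 ± 160 in SEM::EGR3 (SD, n = 3). The single libraries had 8874, 8365 and 8577 CPM in SEM::mock and 7706, 8024 and 7834 in SEM::EGR3, without overlap. As a share of the listed counts, with no scaling factor, the members took 0.835% ± 0.032 in SEM::mock and 0.803% ± 0.013 in SEM::EGR3, and here the lines overlapped, with 0.808% in SEM::mock replicate 2 and 0.817% in SEM::EGR3 replicate 2. In bulk RNA, fewer cells of a type and less RNA per cell cannot be told apart.

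By subunit, 8 of 48 tested large-subunit genes were higher and 22 lower, with a median of -0.12, and 9 of 25 small-subunit genes were higher and 10 lower, with a median of -0.11. With no normalization factors the counts were 12 and 14 (large) and 11 and 6 (small), beside 6304 and 4309 of all 15465 tested genes. With the library totals they were 13 and 14 and 11 and 5, beside 6399 and 4191. Requiring at least 10 counts in every library gave 8 and 16 and 10 and 7, beside 4251 and 4230 of 12801 genes. The ratio of summed small-subunit to summed large-subunit levels was 0.463 ± 0.0036 in SEM::mock and 0.480 ± 0.0019 in SEM::EGR3 (SD, n = 3). Of 44 tested members with a bacterial counterpart, 7 were higher (15.9%) and 21 lower (47.7%), with a median of -0.13. Of 29 specific to mitochondria, 10 were higher (34.5%) and 11 lower (37.9%), with a median of -0.09. MRPS18A and MRPS18B were counted among these 29 although they are relatives of bacterial S18. Placed with the bacterial counterparts instead, they made it 8 higher and 21 lower of 46, and 9 higher and 11 lower of 27. The differences between these subgroups were not tested.

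The largest decrease was that of MRPS21, a small-subunit protein with a bacterial counterpart encoded at chr1:150293720-150308979. MRPS21 had 302, 294 and 318 CPM in the SEM::mock libraries and 155, 162 and 150 in the SEM::EGR3 libraries. All SEM::EGR3 libraries lay below all SEM::mock libraries, and the level was 1.96-fold lower (log2 fold change -0.97, SE 0.055, adjusted p = 6.5e-14). The small-subunit protein MRPS22, which is specific to mitochondria and known for mutations in inherited mitochondrial disease, had 130, 116 and 119 CPM in SEM::mock and 68.0, 83.0 and 73.1 in SEM::EGR3. Its lines did not overlap either, with a 1.65-fold lower level (log2 fold change -0.72, SE 0.071, adjusted p = 2.2e-09). MRPS23, also specific to mitochondria, had 102, 99 and 91.4 CPM in SEM::mock and 66.6, 68.8 and 71.2 in SEM::EGR3. The 1.42-fold decrease again separated the lines (log2 fold change -0.50, SE 0.064, adjusted p = 1.7e-07).

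The large subunit, with 48 of the 74 tested members, held 5 of the 8 largest decreases. MRPL41, a protein specific to mitochondria, had 318, 303 and 298 CPM in SEM::mock and 157, 172 and 160 in SEM::EGR3. It was 1.89-fold lower with no overlap (log2 fold change -0.91, SE 0.056, adjusted p = 2.4e-13). MRPL16, the counterpart of bacterial L16 near the catalytic centre, had 165, 127 and 150 CPM in SEM::mock and 83.1, 87.4 and 82.2 in SEM::EGR3. The SEM::mock libraries were more spread, but each lay above every SEM::EGR3 library (log2 fold change -0.81, SE 0.072, adjusted p = 4.0e-10). MRPL40, encoded on chromosome 22, had 184, 181 and 181 CPM in SEM::mock and 111, 117 and 112 in SEM::EGR3. Its spread within each line was small beside the difference (log2 fold change -0.69, SE 0.055, adjusted p = 5.2e-11). MRPL30, whose upstream bases are printed above, had 110, 104 and 97.7 CPM in SEM::mock and 65.4, 69.5 and 64.7 in SEM::EGR3. MRPL32, a protein that the mitochondrial m-AAA protease has to cut before it joins the ribosome, had 71.2, 62.1 and 66.9 CPM in SEM::mock and 45.8, 42.7 and 44.3 in SEM::EGR3. Both fell without overlap, MRPL30 by 0.65 and MRPL32 by 0.58 on the log2 scale (SE 0.064 and 0.072).

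The largest increase was that of MRPL17, a large-subunit protein with a bacterial counterpart encoded at chr11:6680782-6683401. MRPL17 had 64.7, 57.3 and 58.4 CPM in SEM::mock and 109, 115 and 107 in SEM::EGR3. The lines stood well apart, with a 1.83-fold higher level (log2 fold change 0.87, SE 0.067, adjusted p = 2.1e-11). MRPL39, a protein of the large subunit that is specific to mitochondria, had 31.6, 28.6 and 28.6 CPM in SEM::mock and 43.1, 42.7 and 40.5 in SEM::EGR3. It was 1.42-fold higher without overlap (log2 fold change 0.51, SE 0.083, adjusted p = 7.3e-06). MRPL43, likewise specific to mitochondria, had 57.1, 52.4 and 48.0 CPM in SEM::mock and 64.7, 75.3 and 69.9 in SEM::EGR3. Here the lines were closer, with a log2 fold change of 0.40 (SE 0.077, adjusted p = 6.1e-05).

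The small subunit, with 25 of the 74 tested members, held 5 of the 8 largest increases. Proteins specific to mitochondria are encoded by 4 of these 5 genes, and by 10 of the 25. MRPS27, which belongs to the pentatricopeptide repeat proteins, had 74.7, 70.7 and 76.9 CPM in SEM::mock and 107, 112 and 104 in SEM::EGR3. It was 1.45-fold higher (log2 fold change 0.54, SE 0.063, adjusted p = 4.2e-08). MRPS26 had 56.4, 60.6 and 54.9 CPM in SEM::mock and 79.7, 81.6 and 80.2 in SEM::EGR3. Its SEM::EGR3 libraries were among the most alike of these genes, and the log2 fold change was 0.49 (SE 0.066, adjusted p = 5.0e-07). MRPS33 had 78.8, 69.2 and 66.3 CPM in SEM::mock and 92.8, 102 and 98.3 in SEM::EGR3. MRPS25 had 82.3, 70.5 and 74.7 CPM in SEM::mock and 104, 103 and 96.4 in SEM::EGR3. MRPS33 and MRPS25 were thus raised to a like degree, with log2 fold changes of 0.44 and 0.42 (SE 0.069 and 0.067) and no overlap. MRPS9, the only one of these 5 with a bacterial counterpart, had 34.6, 36.3 and 38 CPM in SEM::mock and 45.3, 45.9 and 51.4 in SEM::EGR3. All its SEM::EGR3 libraries were higher (log2 fold change 0.38, SE 0.081, adjusted p = 0.00018).

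**Figure D3:**
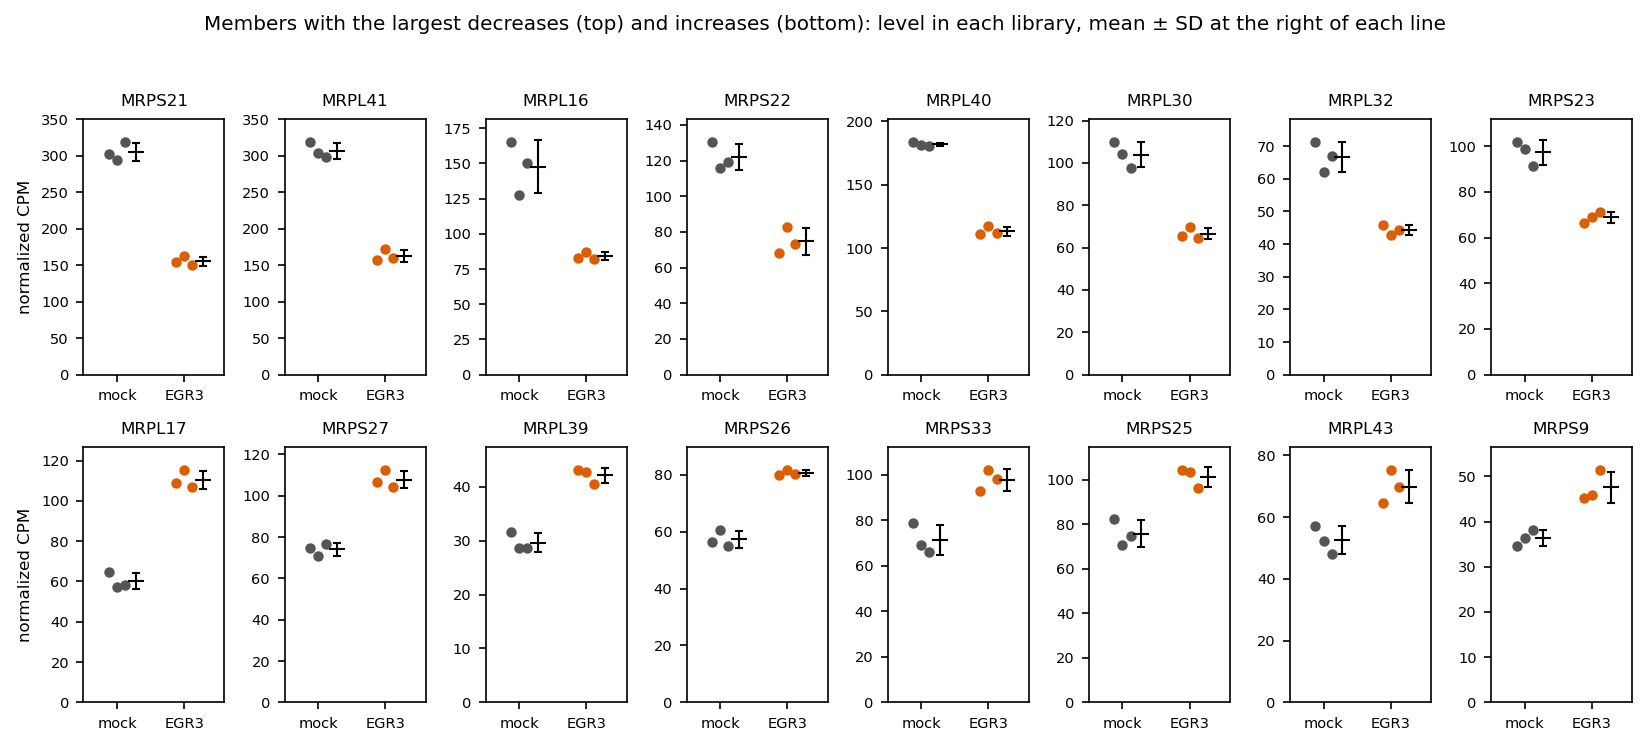
Normalised CPM (y axis, from 0) in each of 3 libraries per line for the 8 members with the largest decreases (top row) and the 8 with the largest increases (bottom row), with the mean ± SD at the right of each line. In all 16 panels the libraries of the lines do not overlap, and for MRPL43 the gap between the lines is smaller than the spread within either.

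The paralogs of MRPS18 differed in direction. These proteins descend from the same bacterial protein, S18, but occupy different places in the ribosome. MRPS18A had 188, 178 and 170 CPM in SEM::mock and 160, 176 and 169 in SEM::EGR3. The lines overlapped, and the change was not called (log2 fold change -0.09, SE 0.058, adjusted p = 0.17). MRPS18B had 178, 171 and 190 CPM in SEM::mock and 203, 206 and 202 in SEM::EGR3. It was called higher (log2 fold change 0.18, SE 0.055, adjusted p = 0.0055), but not without SEM::mock replicate 2, where the log2 fold change was 0.13 and the adjusted p = 0.065. MRPS18C had 127, 123 and 114 CPM in SEM::mock and 101, 112 and 110 in SEM::EGR3. It was called lower (log2 fold change -0.18, SE 0.063, adjusted p = 0.014), but not without SEM::EGR3 replicate 1 (-0.12, adjusted p = 0.12), and not under 3 other settings. Pseudogenes named after MRPS18C carried 28.9% as many counts as the gene itself, so its reads may be shared with near-identical copies and its value is uncertain. Such pseudogene rows existed for 25 members, and passed 5% of the parent's counts for MRPS18C and MRPS36 alone.

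MRPL12, a large-subunit protein that is also known to bind the mitochondrial RNA polymerase, had 205, 196 and 201 CPM in SEM::mock and 183, 188 and 190 in SEM::EGR3. The libraries did not overlap, yet the change was small and was not called (log2 fold change -0.10, SE 0.053, adjusted p = 0.090). The members with the highest unadjusted p were MRPL4, MRPL46 and MRPL33. MRPL4 had 180, 159 and 172 CPM in SEM::mock and 172, 172 and 164 in SEM::EGR3, and MRPL33 had 165, 160 and 164 against 157, 160 and 161. Both pairs of lines overlapped, with log2 fold changes of -0.01 and -0.03 (SE 0.058 and 0.054). MRPL46 was poorly measured, with 2.12, 3.68 and 1.96 CPM in SEM::mock and 3.10, 2.42 and 2.98 in SEM::EGR3. Its log2 fold change of 0.14 had an SE of 0.28, so that a change of the size seen in most called members was not detectable at counts this low.

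The remaining 4 members, MRPL23, MRPL38, MRPL53 and MRPS24, were too low to test. MRPL23 had 6 or 7 counts in each library. MRPL38 was counted 2, 3 and 2 times in SEM::mock and 0, 1 and 0 times in SEM::EGR3. MRPL53 reached at most 2 counts and MRPS24 at most 4. For 3 of these genes the annotation places another gene over the 3′ end, which is the part that MACE-Seq reads. In the last 300 exonic bases of their coding transcripts, 100% of the bases of MRPS24 were shared on the same strand with the readthrough gene URGCP-MRPS24, 99.3% of MRPL38 with AC087289.3 and 91.6% of MRPL53 with CCDC142. MRPL23 shared none. Of the 4 members with at least 50% of these bases shared, 1 was tested (MRPS17), against 73 of the other 74. Over the protein-coding genes of the table, 39.8% of the 407 so shared were tested and 71.4% of the other 16840. How reads in shared bases were counted, and with which annotation release, is not given in the sources used here. The part of this overlap in the low counts was not tested.

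The member genes lay on 21 chromosomes. The median log2 fold change of all tested genes on a chromosome ranged from -0.25 to 0.24, and after subtraction of the median of its own chromosome the median member value was -0.11. On chromosome 1, 0 of 8 tested members were higher and 5 were lower, where the median of its 1559 tested genes was -0.13. The values of MRPS21 and MRPL17 were several times the medians of their chromosomes, -0.13 and 0.03.

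Promoter windows of 250 bases before to 50 after the RefSeq start were at hand for 69 members. The letters GCGTGGGCG and GCGGGGGCG, which EGR proteins bind, were sought on both strands. At least 1 was present for 5 of 69 members (7.25%), against 6.95% of 27305 genes with a window and 12.3% of those tested. It was present for 1 of 16 higher members, 1 of 28 lower members and 2 of 22 not called. The NRF1 motif was found for 9 of 69 members (13.0%), against 6.98% of all genes with a window and 13.4% of those tested. These were 4 of 16 higher members and 5 of 28 lower members, and none of the 22 not called. The letters CCGGAAGT, bound by ETS factors such as GABPA, were found for 12 of 69 members (17.4%), against 4.95% of all genes with a window and 9.88% of those tested, with 3 of 16 higher, 5 of 28 lower and 2 of 22 not called. A match describes the letters of the window only.

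Mitochondrial ribosomal proteins that carry other names were listed too, and 1 of 5 tested was higher and 2 were lower. DAP3, a GTP-binding protein of the small subunit, had 265, 238 and 246 CPM in SEM::mock and 118, 124 and 123 in SEM::EGR3. Its 2.06-fold decrease separated the lines clearly (log2 fold change -1.04, SE 0.057, adjusted p = 3.2e-14). CHCHD1, also of the small subunit, had 101, 102 and 95.7 CPM in SEM::mock and 104, 117 and 113 in SEM::EGR3. Its call as higher (log2 fold change 0.15, SE 0.063, adjusted p = 0.033) was lost without any of SEM::mock replicates 1, 2 and 3 or SEM::EGR3 replicates 2 and 3, at log2 fold changes of 0.11 to 0.16, and also by DESeq2, with no filter and with a replicate block.

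Factors that assemble the ribosome or modify its RNA went both ways, with 8 of 25 tested higher, 5 lower and a median of 0.11. With no normalization factors the counts were 11 and 4, beside 6304 and 4309 of all 15465 tested genes. With the library totals they were 13 and 4, beside 6399 and 4191. GTPBP6, a GTPase that recycles mitochondrial ribosomes and acts in their assembly, had 13.1, 12.6 and 17.8 CPM in SEM::mock and 42.3, 36.6 and 37.8 in SEM::EGR3. It was 2.73-fold higher, a larger change than that of any member (log2 fold change 1.45, SE 0.11, adjusted p = 3.5e-11). RCC1L, which takes part in assembly, had 112, 110 and 110 CPM in SEM::mock and 69.7, 65.1 and 77.7 in SEM::EGR3. It was lower in every SEM::EGR3 library (log2 fold change -0.64, SE 0.066, adjusted p = 5.2e-09).

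Translation factors also went both ways, with 4 of 15 tested higher and 3 lower, and with 5 and 2 under the library totals. MTIF3, an initiation factor, had 34.6, 31.0 and 26.5 CPM in SEM::mock and 59.7, 64.8 and 67.2 in SEM::EGR3. It was 2.06-fold higher without overlap (log2 fold change 1.04, SE 0.087, adjusted p = 1.0e-10). MTRF1L, which releases the finished chain at stop codons, had 30.6, 31.3 and 33.3 CPM in SEM::mock and 20.7, 19.7 and 22.1 in SEM::EGR3. It was 1.52-fold lower (log2 fold change -0.60, SE 0.093, adjusted p = 3.2e-06). TUFM, the elongation factor that brings tRNAs to the ribosome, had 450, 435 and 428 CPM in SEM::mock and 379, 391 and 378 in SEM::EGR3. Its decrease was small (log2 fold change -0.19, SE 0.050, adjusted p = 0.0014) and was not called with the library totals (-0.10).

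**Figure D4:**
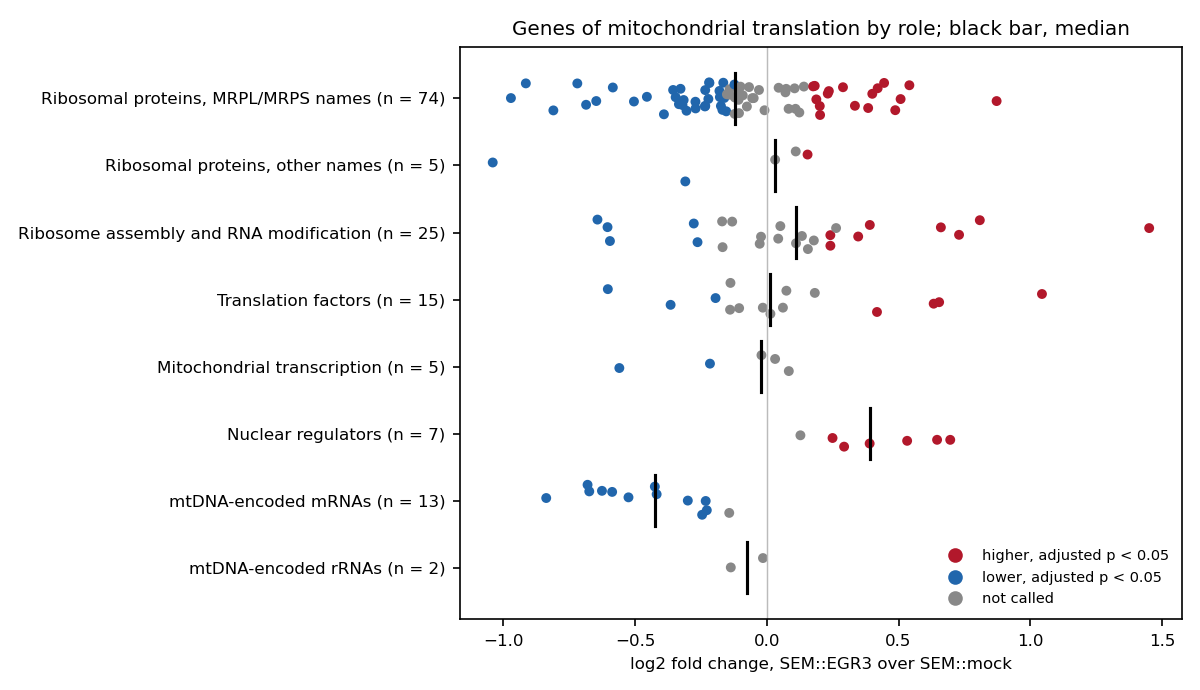
Fitted log2 fold change (x axis, SEM::EGR3 over SEM::mock) of tested genes in 8 groups of mitochondrial translation, 1 point per gene, with a black bar at the median. The 13 mtDNA-encoded mRNAs lie below 0 (median -0.43) and the 7 nuclear regulators above it (median 0.39), while the 74 members straddle 0.

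Of 13 mRNAs encoded by mitochondrial DNA, the templates of this ribosome, 12 were lower (92.3%) and 0 higher in SEM::EGR3, with a median of -0.43. Of all tested genes, 32.0% were lower and 36.5% higher. DESeq2 called 10 lower and 0 higher, and 0 were higher at an unadjusted p under 0.05 with either tool. Together the 13 mRNAs took 7.89% ± 0.68 of the listed counts in SEM::mock and 6.03% ± 0.22 in SEM::EGR3 (SD, n = 3), without overlap. Taken singly, the libraries of the lines did not overlap for 8 of the 13 (61.5%), beside 70.1% of all tested genes. MT-ATP6, a subunit of ATP synthase, had 9448, 12185 and 11648 CPM in SEM::mock and 6573, 5874 and 6176 in SEM::EGR3. It showed the largest decrease of the list (log2 fold change -0.84, SE 0.067, adjusted p = 4.8e-11). The mitochondrial rRNAs MT-RNR1 and MT-RNR2 were not called by edgeR or by DESeq2, also at an unadjusted p under 0.05, except that both were lower without SEM::mock replicate 1, with a median of -0.20, and 1 was lower with no filter on low counts.

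Of 5 genes for transcription in mitochondria, 2 were lower and 0 higher by edgeR and by DESeq2, with 0 higher at an unadjusted p under 0.05. TFB2M, which opens mitochondrial promoters, had 58.0, 48.1 and 54.1 CPM in SEM::mock and 36.2, 35.3 and 36.8 in SEM::EGR3. It was 1.47-fold lower (log2 fold change -0.56, SE 0.079, adjusted p = 9.3e-07). TFAM, which packs and transcribes mitochondrial DNA, had 67.2, 61.1 and 69.2 CPM in SEM::mock and 57.5, 55.5 and 56.4 in SEM::EGR3. Its decrease (log2 fold change -0.22, SE 0.069, adjusted p = 0.0075) was not called with no normalization factors (-0.14) or with the library totals (-0.13). POLRMT, the RNA polymerase of mitochondria, had 39.8, 36.3 and 39.2 CPM in SEM::mock and 39.2, 40.1 and 38.5 in SEM::EGR3, and the lines overlapped (log2 fold change 0.03, SE 0.078).

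Among nuclear regulators of genes for mitochondrial proteins, 6 of 7 tested were higher (85.7%) and 0 lower by edgeR and by DESeq2. At an unadjusted p under 0.05, 0 were lower, and the median was 0.39. Of all tested genes, edgeR called 36.5% higher and 32.0% lower. GABPA, the DNA-binding subunit of an ETS factor, had 12, 12.7 and 12.7 CPM in SEM::mock and 20.5, 20.7 and 19.5 in SEM::EGR3. It was 1.62-fold higher without overlap (log2 fold change 0.70, SE 0.11, adjusted p = 7.9e-06). NRF1, named here after its values were seen because of the motif above, had 11.1, 15.4 and 9.61 CPM in SEM::mock and 19.0, 19.1 and 19.1 in SEM::EGR3. The SEM::mock libraries were the more variable, and none reached the SEM::EGR3 level (log2 fold change 0.65, SE 0.13, adjusted p = 0.00016).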

How the data were processed

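MACE-Seq, a 3′ end counting method, was run by the authors on 3 SEM::mock and 3 SEM::EGR3 libraries. The deposited table lists raw counts per gene and CPM for each library. The submitters' processing notes name bcl2fastq, Bowtie2, HTSeq and the build GRCh38, without versions. The CPM that the authors deposited were used only to recover each library's total, of which the listed genes held 73.6% to 75.8%. Another 6 columns of normalized values per library, and the authors' own fold changes and p-values, were not used.

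Counts were analysed with edgeR 4.0.16 in R 4.3.3. Genes passing filterByExpr were scaled by TMM and tested with the quasi-likelihood test, comparing all SEM::EGR3 with all SEM::mock libraries with no covariate, and p-values were adjusted by Benjamini-Hochberg over 15465 genes. SEs are the log2 fold change over the root of F. Normalised CPM are counts divided by the library total and the TMM factor, and levels of different genes were not ranked. Within a line, replicate libraries differed by more than counting noise (chi-square per degree of freedom 1.69 to 3.27). Gene positions and 3′ ends were taken from GENCODE release 29 on GRCh38, which held 97.0% of the table's gene IDs, and promoter windows from RefSeq.

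The gene family, the lists and the tests were chosen with earlier results of these data known, and within the family members were taken by symbol alone. Named members were the 8 with the largest increases and the 8 with the largest decreases among those called without overlap between lines, the MRPS18 paralogs, MRPL12, the members not tested and the 3 with the highest p. In the other lists they were the called genes with the largest increase and decrease, and POLRMT, TFAM, TUFM and DAP3. Alternatives were DESeq2 1.42.0, other scalings and filters, a replicate block and leaving out each library. The scaling by library totals was chosen after seeing the data.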

Additional observations from a re-analysis of the deposited data

How the results depend on the processing

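Across 14 alternatives, 19 of the 33 lower and 12 of the 17 higher member calls were made in all of them, and none was called in the opposite direction. DESeq2 called 16 members higher and 28 lower. With no normalization factors 20 members were lower and the median log2 fold change was -0.0443, with the library totals behind the deposited CPM these were 19 and -0.0315, and with at least 10 counts in every library the median was -0.0709. With no filter, 78 members were tested, 17 were higher and 31 lower. Leaving out each library gave 13 to 17 members higher, 25 to 34 lower, 9 to 11 called with a log2 fold change of 0.5 or more in either direction, and medians of -0.14 to -0.093. The replicate block gave 17 higher and 28 lower and a median of -0.12. Same-numbered libraries correlated at -0.105, -0.063 and -0.034 in their deviations from the line means, and the other pairs at -0.008 to 0.071. With 3 libraries a line, these values cannot decide whether same-numbered libraries were paired.

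Of 490 values for 35 named genes, 462 kept their direction and side of the threshold, 16 kept the direction but were no longer called and 12 changed sign, all in genes that were not called. MRPL4 was 0.0684 with no normalization factors, 0.0064 with upper-quartile factors, 0.042 with at least 10 counts in every library and 0.0805 with the library totals. MRPL33 was 0.0476 with no normalization factors, 0.021 with at least 10 counts in every library and 0.0601 with the library totals. Without 1 library at a time, MRPL4 ranged from -0.0701 to 0.0175, MRPL46 from -0.0287 to 0.4859 and POLRMT from -0.0227 to 0.0466. With 3 libraries a line and 5286115 to 15106018 listed counts each, SEs of log2 fold changes were near 0.06 for most members. They were larger for genes of few counts such as MRPL46. Nothing here separates EGR3 from other differences between the lines.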
